A study of Mus musculus with 2 samples.

Results

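The 9 members are genes that mark resting, homeostatic microglia of the mouse brain: P2ry12, P2ry13, Gpr34, Cx3cr1, Csf1r, Siglech, Selplg, Tmem119 and Sall1. They were taken by name, 9 of the 31053 genes in the count tables, and described in the 4062 nuclei (of 8171) that the authors labelled Micro-PVM, microglia and perivascular macrophages. The other 4109 nuclei served to measure how much RNA of these genes was found under other labels. All nuclei carried GFP on the nuclear envelope in Atf3-CreER::Sun1-sfGFP mice (Atf3-CreER:+/wt; SUN-SfGFP:+/wt), in which tamoxifen marks cells that express Atf3, a transcription factor induced by injury, in any cell type. The mice, over 7 weeks old, received a mild traumatic brain injury to the closed skull and 75 mg/kg tamoxifen at 4 and 5 days post injury (dpi), and GFP+ nuclei were sorted from the ipsilateral cortex at 7 dpi for single nucleus RNA sequencing with the 10X 3′ v3 chemistry. There was 1 library from a pool of 4 males and 1 from a pool of 4 females, so sex, pool and sequencing depth cannot be told apart and no test between the libraries was made. A label field of the female library gives its animals as male, and its title and the table of nuclei as female. All animals of both libraries were injured and treated, and microglia without GFP were not analysed here.

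Microglia are the resident macrophages of the brain, kept alive by signaling through the receptor Csf1r. In the healthy brain they survey the tissue and sense purines and the neuronal chemokine fractalkine with the members P2ry12 and Cx3cr1, under an identity program that depends on TGF-beta and on the transcription factor Sall1. Microglia that react to injury or disease are known to lower many of these genes and to raise genes of phagocytosis and lipid handling such as Apoe.

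The counts are unique molecular identifiers (UMIs), 1 per captured molecule, with reads in introns counted for their gene. A level is a CPM, the usual scaling of a gene's UMIs by the total UMIs of the summed nuclei, the same in every sum. Levels are compared within a gene and not between genes, since intronic counts grow with gene length. Values given in pairs are for the male and then the female library. The Micro-PVM nuclei (1700 and 2362) had a median of 1304 and 3038 UMIs. The label was checked against markers. The 8 microglial marker genes, among them C1qa, Ctss, Inpp5d and Tyrobp, summed to 5039 and 5200 CPM (male and female library) in Micro-PVM nuclei, against 463 and 866 CPM in the neurons. RNA of other cells was present as well, with 6 neuron markers at 3498 and 2833 CPM in Micro-PVM nuclei and 23350 and 21304 CPM in the neurons. Its part in the member levels was not tested. 1 barcode occurred in both libraries.

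The members lie on 7 chromosomes (GRCm38, GENCODE vM21), and all are protein coding. P2ry12 (chr3:59216272-59262871, minus strand) and P2ry13 (chr3:59207892-59210882, minus strand), receptors for purine nucleotides, are neighbors 5.39 kb apart and both overlap Med12l on the opposite strand. Tmem119 (chr5:113793729-113800516, minus strand), a membrane protein used to tell microglia from other macrophages, and Selplg (chr5:113818536-113832644, minus strand), which encodes the selectin ligand PSGL-1, are 18 kb apart. Gpr34 (chrX:13632089-13640858, plus strand), a lysophospholipid receptor, overlaps Cask on the opposite strand. Siglech (chr7:55768178-55778925, plus strand), a sialic acid binding lectin, and Sall1 (chr8:89027235-89044162, minus strand), a zinc finger transcription factor, overlap no other gene counted. Cx3cr1 (chr9:119901616-120069879, minus strand) spans 168264 bases in this annotation and overlaps 9 other counted genes, 3 of them (Gorasp1, Csrnp1 and Xirp1) on its own strand, so its counts are less certain than those of the other members.

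The microglial lineage factor PU.1 binds an ETS core, and the members are known as genes of that lineage, so the 250 bases before the start were searched for it where RefSeq (GRCm38.p6) gave them. These covered P2ry12, P2ry13, Siglech, Cx3cr1 and Sall1, with 3 starts for Sall1, 7 windows of 5 genes. The core GGAAGT, on either strand, was in 3 of the 7 windows, and in 19.7% of all 32851 windows of this length. The longer GAGGAAGT, which contains it, was in 0 of the 7 and in 2.44% of all. The 3 windows that hold the core, of P2ry12, Siglech and Sall1, are shown so that its place can be read, with the core in capitals (ACTTCC is the core on the other strand).
P2ry12, chr3:59262986-59263235, minus strand, core 51 bases before the start: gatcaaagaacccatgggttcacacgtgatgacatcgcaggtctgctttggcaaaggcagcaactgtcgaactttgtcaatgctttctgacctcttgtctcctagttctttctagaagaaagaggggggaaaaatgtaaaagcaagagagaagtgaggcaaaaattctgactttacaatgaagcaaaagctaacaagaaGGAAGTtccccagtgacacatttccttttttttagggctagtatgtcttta
Siglech, chr7:55767934-55768183, plus strand, core 156 bases before the start: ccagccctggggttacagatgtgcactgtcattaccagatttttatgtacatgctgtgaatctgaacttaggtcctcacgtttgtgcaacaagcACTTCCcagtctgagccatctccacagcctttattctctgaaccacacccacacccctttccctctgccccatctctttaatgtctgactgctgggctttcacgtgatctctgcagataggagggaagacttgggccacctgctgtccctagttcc
Sall1, chr8:89042863-89043112, minus strand, core 180 bases before the start: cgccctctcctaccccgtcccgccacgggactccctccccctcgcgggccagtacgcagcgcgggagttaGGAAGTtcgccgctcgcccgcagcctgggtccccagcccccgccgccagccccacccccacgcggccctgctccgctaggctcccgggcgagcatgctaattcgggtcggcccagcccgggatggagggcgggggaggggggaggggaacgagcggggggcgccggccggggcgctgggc
A match is a description of these letters and does not show binding.

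All 9 members were detected in Micro-PVM nuclei of both libraries, and all 9 were higher in the male library. The purine receptor P2ry12 was at 295 CPM (95% Poisson interval 275 to 317) and 226 CPM (216 to 236), a mean of 261 ± 49.4 (SD, n = 2). P2ry13, which had the fewest UMIs (31 and 92), was at 12.1 and 10.9 CPM. Gpr34 was at 86.3 and 56.3 CPM. The 3 receptors differed in how far the libraries were apart, with overlapping intervals for P2ry13 alone. The fractalkine receptor Cx3cr1 was at 556 (528 to 586) and 377 (364 to 390) CPM, and Csf1r at 491 (464 to 519) and 443 (429 to 457) CPM. Among the other surface proteins, Siglech was at 369 (346 to 394) and 192 (182 to 201) CPM, Selplg at 245 (227 to 265) and 178 (169 to 187) CPM, and Tmem119 at 60.9 (51.7 to 71.2) and 33.7 (29.9 to 37.8) CPM. Sall1, the only transcription factor of the group, was at 251 (232 to 272) and 201 (192 to 211) CPM. Intervals cover counting error only.

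Summed over the 9 members, the level reached 2368 and 1716 CPM, a ratio of 1.38 (1.34 to 1.42). The ratio was largest for Siglech, 1.93 (1.78 to 2.09), and Tmem119, 1.81 (1.48 to 2.21), and smallest for Csf1r, 1.11 (1.04 to 1.18), and P2ry13, 1.11 (0.711 to 1.68). Depth moved with it. In the male library the summed level was 2821 CPM in nuclei of 500 to under 1000 UMIs, and 2538, 2083 and 990 CPM in nuclei of 1000 to under 2000, 2000 to under 4000 and at least 4000 UMIs. In the female library it was 1991, 1924 and 1486 CPM in the last 3 of these ranges. In nuclei of 2000 to under 4000 UMIs alone (300 male and 1242 female), the ratio of the sum was 1.08, and those of Csf1r and Tmem119 turned to 0.833 and 0.934. In the same range, cluster 5 was at 3110 CPM (2899 to 3332) and 3449 CPM (3246 to 3662), with overlapping intervals. Cluster 1 was at 1651 CPM (1518 to 1793) and 1353 CPM (1280 to 1428) in that range, higher in the male library and with intervals apart.

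Most Micro-PVM nuclei held RNA of at least 1 member. The share with a UMI of any member was 90.9% (of 1700) and 94.5% (of 2362). With all nuclei thinned to a depth of 1000 UMIs, leaving out 453 male and 16 female nuclei, it was 83.7% and 75.8%, against 5.8% and 4.59% in the neurons, where these genes are not expected and which had a median of 3591 and 8501.5 UMIs before thinning. At that depth a Micro-PVM nucleus showed a mean of 1.88 and 1.49 of the 9 members, with an SD over nuclei of 1.33 and 1.23, and at most 7 and 6. Cx3cr1 was seen in 41.9% and 31.7% of these thinned nuclei (2.37% and 1.56% of the neurons), Csf1r in 37.9% and 36.1% (1.98% and 0.953%), and P2ry13 in 1.12% and 0.938% (0 of the 1310 and 1154 neurons, which allows up to 0.229% and 0.26%). At these depths a nucleus without a UMI of a member cannot be called negative for it.

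The level of the members differed widely between the 7 deposited clusters that held 100 or more Micro-PVM nuclei. The clusters were made from these same counts, so their levels are a description without a test. The summed level was highest in cluster 5 (3505 and 3153 CPM, male and female) and cluster 0 (3082 and 2468), intermediate in cluster 10 (1872 and 1882), cluster 1 (1757 and 1280), cluster 2 (1715 and 1380) and cluster 9 (1395 and 1199), and lowest in cluster 13 (555 and 435). The order was the same in both libraries except for clusters 1 and 2, which changed places. After thinning to 1000 UMIs, nuclei of cluster 5 showed a mean of 2.69 and 2.37 members and those of cluster 13 a mean of 0.462 and 0.318. At that depth 95.3% and 98.0% of the nuclei of cluster 5 had a UMI of any member, and 38.5% and 27.3% of those of cluster 13.

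**Figure D1:**
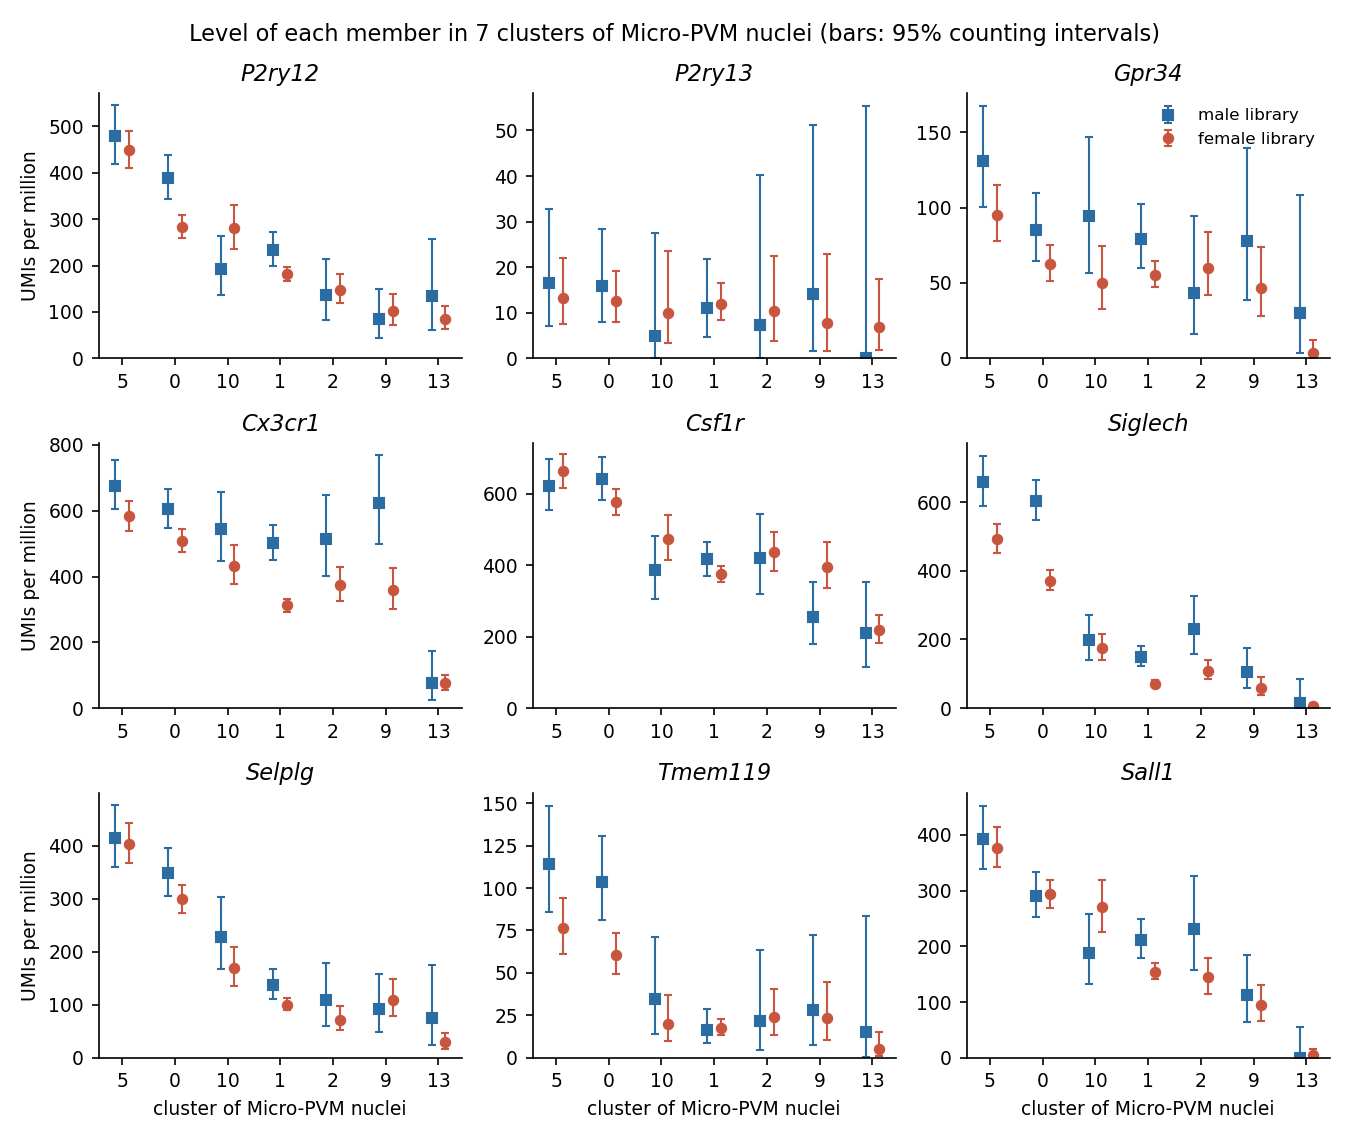
Each panel gives the level of 1 member (y axis, CPM, linear from 0) in the 7 clusters of Micro-PVM nuclei (x axis, ordered by summed level), with squares for the male and circles for the female library and bars for 95% Poisson intervals. Siglech, Selplg and Tmem119 are lower outside clusters 5 and 0. Cx3cr1 is at 623 (male) and 360 (female) in cluster 9 and at 75 in both libraries in cluster 13. Sall1 has 0 and 3 UMIs in cluster 13.

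Among the receptors, P2ry12 was highest in cluster 5 and lowest in cluster 9 (male) or 13 (female). It was at 479 and 449 CPM in cluster 5, 389 and 283 in cluster 0, 234 and 181 in cluster 1, and 85 and 102 CPM in cluster 9, a fold of 5.64 (3.17 to 11.1) and 4.42 (3.19 to 6.29) between clusters 5 and 9. Cx3cr1 behaved otherwise. It was at 677 and 583 CPM in cluster 5 and still at 623 and 360 CPM in cluster 9, but at 75 CPM in both libraries in cluster 13, with 5 and 44 UMIs. Csf1r, which blood-derived and perivascular macrophages also need, varied as well. The gene, on chromosome 18, overlaps Hmgxb3 on the opposite strand. It was at 623 and 663 CPM in cluster 5, 641 and 578 CPM in cluster 0, and 210 and 220 CPM in cluster 13, a fold of 2.96 (1.74 to 5.49) and 3.01 (2.50 to 3.66) between clusters 5 and 13. Gpr34 was at 131 and 94.9 CPM in cluster 5 and 30 and 3.41 CPM in cluster 13, with 2 UMIs in each library there. P2ry13 had between 0 and 36 UMIs per cluster and library, and the intervals of its clusters against cluster 5 all included equal levels.

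Siglech and Sall1 had the largest folds between clusters in the female library. Siglech was at 658 and 492 CPM in cluster 5, 150 and 70.8 CPM in cluster 1, and 15 and 5.12 CPM in cluster 13, where it had 1 and 3 UMIs, a fold of 43.9 (7.82 to 1738) and 96.3 (32.8 to 468) between clusters 5 and 13. Selplg was at 415 and 404 CPM in cluster 5, 137 and 100 CPM in cluster 1, and 75 and 29 CPM in cluster 13. Tmem119 was at 114 and 76.3 CPM in cluster 5 and already at 16.6 and 17.6 CPM in cluster 1. In cluster 1 these 3 genes stood at 14.4% to 33.0% of their level in cluster 5, whereas Csf1r, Cx3cr1 and Gpr34 stood at 53.6% to 74.1%. Sall1 was at 392 and 377 CPM in cluster 5, 212 and 155 in cluster 1, 113 and 93.8 in cluster 9, and in cluster 13 had 0 and 3 UMIs. Taking 3 counts as the floor, it was at least 8.72-fold lower there in the male library and 73.7-fold (25.1 to 359) in the female library.

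Cluster 13, with 27 and 110 Micro-PVM nuclei, thus had little of most members, with Csf1r at 33.7% and 33.2% and P2ry12 at 28.2% and 19.0% of their level in cluster 5. It differed in other markers too. The 9 markers of perivascular macrophages summed to 1395 and 2309 CPM there, against 243 to 489 CPM (male) and 227 to 635 CPM (female) in the other 6 clusters. Of these markers, named here after their values were seen, F13a1 was at 405 and 895 CPM (0 to 4.95 CPM in the other 6 clusters) and the mannose receptor gene Mrc1 at 195 and 343 CPM (0 to 7.23 CPM), whereas Lyve1 and Cd209f had 0 UMIs in all Micro-PVM nuclei. Ms4a7 (285 and 368 CPM) and Stab1 (510 and 667 CPM) were also highest in cluster 13. Cd163, Pf4 and Cbr2 were at 0 CPM there in the male library and at 27.3, 3.41 and 5.12 CPM in the female library. The 6 markers of monocytes and neutrophils summed to 135 and 17.1 CPM there, all of it from Ccr2. Of these 6, 4 (Ly6c2, Chil3, S100a8 and S100a9) were at 0 in all Micro-PVM nuclei. Mitochondrial UMIs made up 2.75% and 1.57% of its UMIs, against 0.17% to 0.331% and 0.119% to 0.439% in the other 6 clusters. The part of these nuclei in the spread of the members can be given directly. Without cluster 13, the fold between the highest and lowest cluster went from 6.73 to 2.57 for the sum of the members (means of the libraries), from 8.4 to 1.55 for Cx3cr1, from 57.2 to 6.92 for Siglech and from 9.47 to 5.56 for Tmem119, and stayed at 4.97 for P2ry12. For Sall1, with 0 male UMIs in cluster 13, it went from at least 8.72 to 3.46 in the male and from 73.7 to 4.02 in the female library.

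Over the 14 sums (7 clusters in 2 libraries, centered within each library, log2 of CPM + 1), the members followed each other to different degrees. These correlations are over sums that share libraries and depth, and are given as a description. The highest was between Cx3cr1 and Sall1 (Pearson r = 0.973), and that of Tmem119 with its chromosomal neighbor Selplg was 0.921. Cx3cr1 and Sall1 were both lowest in cluster 13, and parted in cluster 9. There Cx3cr1 stood at 92.1% and 61.7% of its level in cluster 5, and Sall1 at 28.9% and 24.9%. The part of cluster 13 in these correlations was not tested. The lowest was between the neighbors P2ry12 and P2ry13 (r = 0.418), the latter with at most 36 UMIs per sum. Against the mean of the other 8, Siglech had the highest r (0.98) and P2ry13 the lowest (0.715).

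Other genes with a cluster pattern like that of the members were sought among 6329 non-members of at least 20 CPM, over the same sums. Cluster 13 was among these sums, and its part in r was not tested. The 8 with the highest r to the mean of the 9 were Csmd3, Arsb, Frmd4a, St3gal6, Atp8a2, Kcnd1, Cryba4 and Sipa1l1, with r from 0.991 to 0.974. Csmd3 was at 1525 and 1390 CPM in cluster 5 and 90 and 42.6 CPM in cluster 13, and the sialyltransferase gene St3gal6 at 587 and 357 CPM against 30 and 6.82 CPM. The 8 with the lowest r were Plxnd1, Rbms1, Hpcal1, Itsn1, Fam129b, App, Dnase1l1 and Trps1, with r from -0.963 to -0.939. Trps1 was at 80.9 and 110 CPM in cluster 5 and 1065 and 844 CPM in cluster 13. St3gal6 and Trps1 were picked from the 16 after their values were seen.

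The members were set beside lists of related genes, counted as higher or lower in cluster 5 than in cluster 1 in both libraries, among genes of at least 5 CPM. Cluster 5 is the reference because the members' own sum was highest there, so nothing is read from their count in it. Of all 10467 genes, 24.6% were higher in cluster 5. Of 26 other homeostatic microglial genes 21 were higher and 3 lower. The count depended on the cluster compared. Of the 26, 16 to 20 were higher in cluster 5 than in clusters 2, 9, 10 or 13, as were 28.2% to 32.9% of all genes. Against cluster 0, 9 of 26 (34.6%, against 27.3% of all genes) were higher. Among those highest in level, the phagocytic receptor gene Mertk was at 2075 and 2367 CPM in cluster 5 and 1794 and 1944 CPM in cluster 1. The TGF-beta receptor gene Tgfbr1 was at 1517 and 1650 against 1275 and 1086 CPM, and Bin1, an endocytic protein, at 1191 and 946 against 897 and 511 CPM. Of 14 lineage regulators 10 were higher in cluster 5 and 3 lower. The transcription factor genes Runx1 (1652 and 1767 against 1609 and 1536 CPM) and Mef2a (1251 and 1086 against 1088 and 939 CPM) were both among those higher. Against cluster 9, 6 of the 14 were higher (29.8% of all genes) and 5 lower (31.3%). Against cluster 0, 6 were higher (27.3% of all genes) and 4 lower (31.2%). Against clusters 2, 10 and 13, the regulators higher numbered 10, 7 and 8 (30.0%, 28.2% and 32.9% of all genes). Those lower numbered 2, 3 and 4 (30.0%, 29.5% and 30.2%). Sall3, a relative of Sall1 named after its values were seen, was at 76.8 and 75.4 CPM in cluster 5, 76.1 and 43.6 CPM in cluster 1, and 0 and 3.41 CPM in cluster 13.

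Genes of disease-associated microglia were lower in cluster 5 than in most other clusters. Of the 17 in the tables used, out of 18 listed, all 17 were lower in cluster 5 than in cluster 1, as were 37.0% of all genes. Against clusters 9 and 10, 16 of 17 were lower, as were 31.3% and 29.5% of all genes. Against clusters 2 and 13, 11 of 17 were lower, as were 30.0% and 30.2% of all genes. In the other direction, 2 were higher in cluster 5 than in cluster 13, as were 32.9% of all genes. Against cluster 0, 6 of 17 were lower (35.3%), near the 31.2% of all genes. Their sum was 1241 and 1205 CPM in cluster 5, 3902 and 4191 CPM in cluster 1, 4555 and 3264 CPM in cluster 9, and 6735 and 6494 CPM in cluster 13. Apoe, the main lipid carrier of the brain, was at 259 and 284 CPM in cluster 5, 976 and 859 in cluster 1, and 2370 and 1543 CPM in cluster 13. The protease gene Ctsd was at 367 and 270 CPM in cluster 5 and 796 and 577 CPM in cluster 1, and Ctsb, another, at 176 and 198 against 562 and 615 CPM. The tetraspanin gene Cd9 was at 201 and 233 CPM in cluster 5 and 992 and 615 CPM in cluster 9, where Cx3cr1 stood at 92.1% and 61.7% of its level in cluster 5. Interferon genes set cluster 10 apart, with a sum of 3050 and 2397 CPM against 449 to 745 CPM (male) and 273 to 350 CPM (female) in the other 6 clusters. In that cluster the members stood at 1872 and 1882 CPM. Cell cycle genes were scarce, at 109 and 81.5 CPM in cluster 1 and 225 and 119 CPM in cluster 13.

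**Figure D2:**
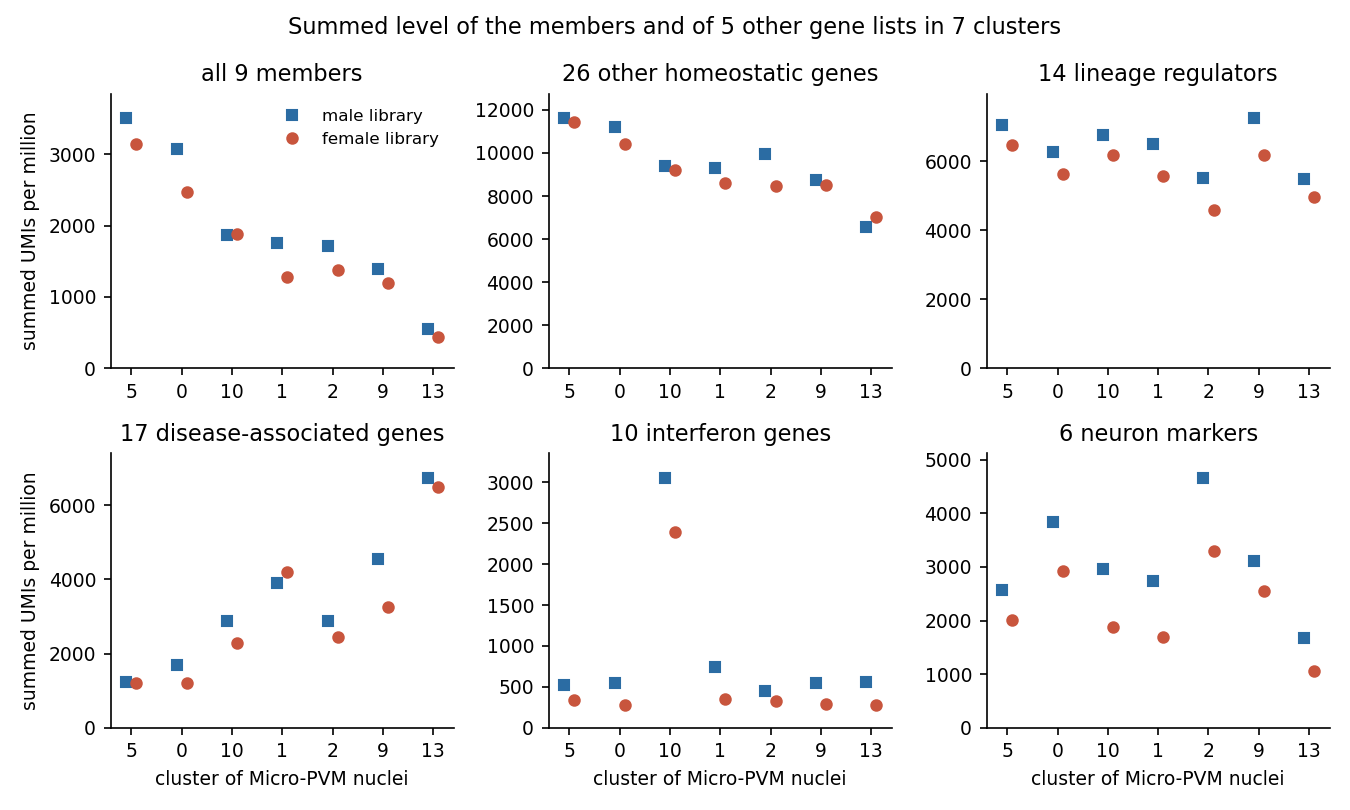
Panels show the summed level (y axis, CPM, linear from 0) of the 9 members and of 5 other lists in the 7 clusters of Micro-PVM nuclei (x axis, in the order of the members), with squares for the male and circles for the female library. The disease-associated genes are at 1241 and 1205 in cluster 5 and 6735 and 6494 in cluster 13, where the members are lowest, and the interferon genes stand out in cluster 10.

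The ligands of the member receptors were found under several labels. Cx3cl1, the fractalkine bound by Cx3cr1, was at 50.1 and 42.3 CPM in the neurons and 11.7 and 9.4 CPM in Micro-PVM nuclei. The Csf1r ligands differed from each other. Il34 was at 236 and 361 CPM in VLMC nuclei (vascular and leptomeningeal cells) and 51.3 and 36.4 CPM in the neurons, against 6.64 and 2.62 CPM in Micro-PVM nuclei. Csf1 was at 102 and 133 CPM in oligodendrocytes (Oligo, 6 and 27 UMIs), 86.6 and 114 CPM in astrocytes (Astro, 14 and 52 UMIs) and 65.6 and 93.6 CPM in Micro-PVM nuclei themselves. Within Micro-PVM nuclei it had 33.2 and 31.9 CPM in cluster 5, 98.3 and 113 in cluster 1, 139 and 187 in cluster 10, and 99.2 and 302 CPM in cluster 9.

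The members were tested in Micro-PVM nuclei that held at least 1 Atf3 UMI (58 male and 221 female) against those without (1642 and 2141), in 4 sums with the library as a block. An Atf3 UMI cannot be read as transcription in that nucleus. Atf3 was at 28.1 (22 to 35.4) and 41.4 (37.2 to 46) CPM in Micro-PVM nuclei, at 39.3 (23.7 to 61.4) and 73.9 (57.4 to 93.7) CPM in barcodes not called as nuclei (at most 100 UMIs), and at 104 and 169 CPM in the neurons. Thinned to 1000 UMIs, 2.41% and 2.34% of Micro-PVM nuclei had an Atf3 UMI, against 10.5% and 12.7% of the neurons. The fitted change was negative for all 9 members, and 5 of 9 passed the test, where 5.56% of 10466 genes were called and 2.04% were called lower (edgeR quasi-likelihood test, Benjamini-Hochberg adjusted p). The median log2 fold change was -0.78 over the members and -0.02 over all genes tested. Siglech was at 379 and 210 CPM without and 178 and 76.7 CPM with an Atf3 UMI, -1.40 ± 0.18 (SE) on the log2 scale (adjusted p = 1.99e-12). Selplg was at 251 and 193 CPM without and 145 and 78.4 CPM with it (-1.23 ± 0.18, adjusted p = 6.17e-09). P2ry12 was at 299 and 242 against 234 and 125 CPM (-0.84 ± 0.16, adjusted p = 3.07e-05). In these 3 genes each library was lower with an Atf3 UMI. Sall1 (255 and 213 against 178 and 123 CPM, -0.78 ± 0.17, adjusted p = 0.000236) and Csf1r (498 and 466 against 355 and 297 CPM, -0.65 ± 0.14, adjusted p = 0.000314) were lower in both as well. Tmem119 (adjusted p = 0.0641), Gpr34 (0.0883), Cx3cr1 (0.152) and P2ry13 (0.936) did not pass, and Cx3cr1 was higher with an Atf3 UMI in the male library (622 against 553 CPM) and lower in the female library (267 against 395 CPM).

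**Figure D3:**
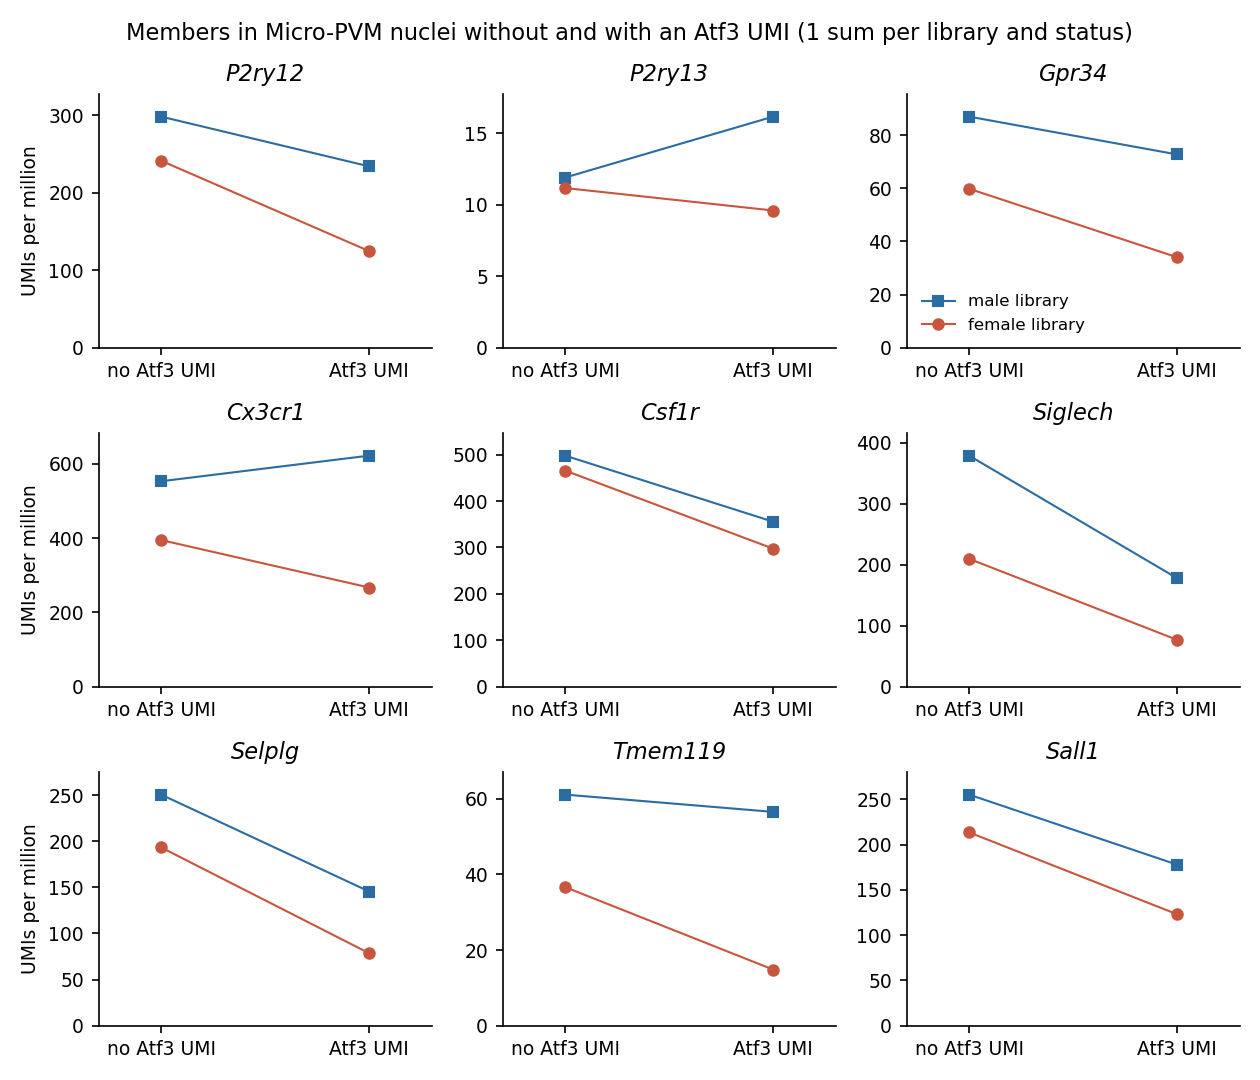
Each panel gives the level of 1 member (y axis, CPM, linear from 0) in Micro-PVM nuclei without and with an Atf3 UMI (x axis), 1 point per library and status, with squares and lines for the male and circles for the female library. P2ry12, Gpr34, Csf1r, Siglech, Selplg, Tmem119 and Sall1 slope down in both libraries, of which Gpr34 and Tmem119 did not pass the test. Cx3cr1 and P2ry13 slope up in the male library.

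Of 26 other homeostatic genes 8 passed the test lower and 0 higher, among them Mertk (-0.46 ± 0.12, adjusted p = 0.00641) and Bin1 (-0.57 ± 0.13, adjusted p = 0.000749), while Tgfbr1 had -0.28 ± 0.13 (adjusted p = 0.23). Of 17 disease-associated genes 6 passed higher and 0 lower, where 369 of all 10466 genes passed higher and 213 lower. Ctsb was among these 6 (0.48 ± 0.14, adjusted p = 0.0114), as was the galectin gene Lgals3, named after its values were seen (1.17 ± 0.18, adjusted p = 2.35e-08), whereas Apoe had 0.10 ± 0.13 (adjusted p = 0.83). Of the 14 lineage regulators 1, Irf8, passed, lower (-0.51 ± 0.16, adjusted p = 0.0276). The sums compared come from the same pools and leave 1 residual degree of freedom, so these p-values rest on a spread shared between genes and measure nuclei within pools. Without the library as a block, 0 of 10466 genes passed (851 at an unadjusted p under 0.05). With DESeq2, 1 of 7 members with an adjusted p, Siglech, passed (adjusted p = 0.00653), as did 33 of 3770 genes.

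Nuclei with an Atf3 UMI were deeper (median 1747 and 4121 against 1291 and 2946 UMIs), held more neuron markers (4579 and 4719 against 3443 and 2535 CPM), and were spread differently over the clusters. Cluster 0 held 22.4% and 11.3% of them, against 38.7% and 32.3% of the nuclei without, and cluster 1 held 37.9% and 42.1% against 22.2% and 27.0%. The clusters lowest in the members held more of them as well, with 17.2% and 11.3% against 5.97% and 5.09% in cluster 9 and 3.45% and 13.1% against 1.52% and 3.78% in cluster 13. Of the 9 perivascular macrophage markers 4 could be tested, and 1, F13a1, passed, higher (0.90 ± 0.26, adjusted p = 0.016). Of the 6 neuron markers, 2 passed the same test higher, Rbfox1 (0.82 ± 0.12) and Csmd1 (0.60 ± 0.13), and 1, Nrgn, lower (-0.92 ± 0.22, adjusted p = 0.0013). Within cluster 1 the neuron markers summed to 2878 and 1596 CPM with an Atf3 UMI, against 2731 and 1721 CPM without. If nuclei without an Atf3 UMI had lain in the clusters in the proportions (by UMIs) of those with one, their summed member level would have been 1881 and 1316 CPM, where the nuclei with an Atf3 UMI had 1858 and 1025 CPM and those without 2394 and 1826 CPM. Within cluster 1 alone, 0 of 8 members tested passed, as did 3 of 7152 genes. At an unadjusted p under 0.05 were 2 of the 8 members and 348 of the 7152 genes. The summed member level within cluster 1 was higher with an Atf3 UMI in the male library (2044 against 1736 CPM) and lower in the female library (1009 against 1333 CPM). Thinned to 1000 UMIs, 2 of 8 members passed, Siglech (adjusted p = 0.000726) and Selplg (adjusted p = 0.00471), and the same 2 passed without cluster 13 (adjusted p = 0.0151 and 0.0231). Of all genes, 43 of 7765 passed after thinning and 153 of 10321 without cluster 13. The part of depth, free RNA and neuronal RNA in the difference was not tested beyond these values.

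Outside the Micro-PVM label the members were found at low levels in every one of 16 other labels of 20 or more nuclei. All other labels together had 97.2 and 44.8 CPM of the 9 members, 4.11% (3.81% to 4.42%) and 2.61% (2.41% to 2.82%) of the level in Micro-PVM nuclei of the same library. By label the sum ranged from 31.1 CPM (L4/5 IT CTX) to 746 CPM (L6 IT CTX) in the male and from 11.8 to 244 CPM, in the same 2 labels, in the female library. L6 IT CTX, named for a neuron of layer 6, stood apart. Its 497 and 298 nuclei had a median of only 735 and 1350 UMIs, and 341 and 124 of them lay in clusters led by Micro-PVM nuclei. These had 1430 and 891 CPM of the members, whereas the L6 IT CTX nuclei elsewhere had 117 and 87.1 CPM. Without clusters led by Micro-PVM, all other labels together had 51.6 and 36.1 CPM.

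**Figure D4:**
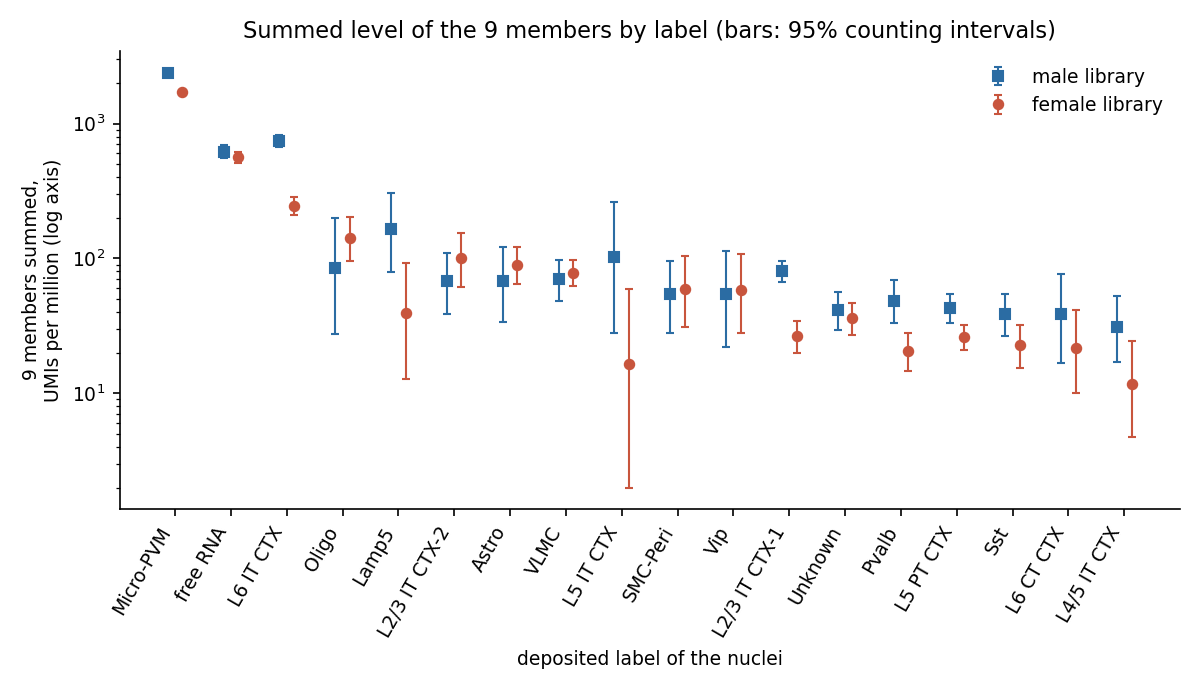
The summed level of the 9 members (y axis, CPM, log axis) is shown for Micro-PVM nuclei, for barcodes not called as nuclei (free RNA) and for 16 other deposited labels (x axis), with squares for the male and circles for the female library and bars for 95% Poisson intervals. Micro-PVM stands at 2368 and 1716, free RNA at 619 and 561, L6 IT CTX at 746 and 244, and the other labels between 11.8 and 166.

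RNA outside nuclei was measured in barcodes not called as nuclei with at most 100 UMIs. It held 619 CPM (551 to 693) and 561 CPM (514 to 612) of the 9 members, 26.1% and 32.7% of the level in Micro-PVM nuclei. In the neurons (1378 and 1202 nuclei that the authors kept as neurons), the sum was 58.1 and 40.9 CPM, 2.46% and 2.38% of the Micro-PVM level, and each of the 9 members stood between 1.35% and 3.56%. Of the 2 ends of that range in the male library, P2ry13 rests on 1 UMI and Csf1r on 107. The UMIs were not evenly spread over nuclei. Of the neurons 17.1% and 21.7% had a member UMI, and the 12 male and 16 female nuclei with 5 or more held 21.1% and 31.5% of all member UMIs in neurons.

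The share of Sall1 in the member UMIs differed between labels. It made up 10.6% (9.85% to 11.4%) and 11.7% (11.2% to 12.2%) of the member UMIs in Micro-PVM nuclei, and 10.4% and 11.3% in the neurons. In VLMC nuclei it made up 38.2% (22.2% to 56.4%) and 54.4% (42.8% to 65.7%), and in astrocytes (Astro) 45.5% (16.7% to 76.6%) and 58.5% (42.1% to 73.7%), with 13 and 43 UMIs in VLMC and 5 and 24 in astrocytes. Among interneurons it made up 28.6% (3.67% to 71.0%) and 60% (26.2% to 87.8%) in Vip, with 2 and 6 Sall1 UMIs, and 0% (0% to 30.8%) and 60% (14.7% to 94.7%) in Lamp5, with 0 and 3. The level of Sall1 was 26.7 and 42.8 CPM in VLMC and 30.9 and 52.4 CPM in astrocytes, against 6.04 and 4.61 CPM in the neurons. In VLMC and astrocytes Sall1 thus did not keep its ratio to the other 8 members, which stood at 43.1 and 35.8 CPM in VLMC and 37.1 and 37.1 CPM in astrocytes, and at 52.1 and 36.3 CPM in the neurons. After thinning to 1000 UMIs, 4.55% and 3.73% of VLMC nuclei and 3.85% and 4.84% of astrocytes had a Sall1 UMI, against 0.382% and 0.433% of the neurons.

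**Figure D5:**
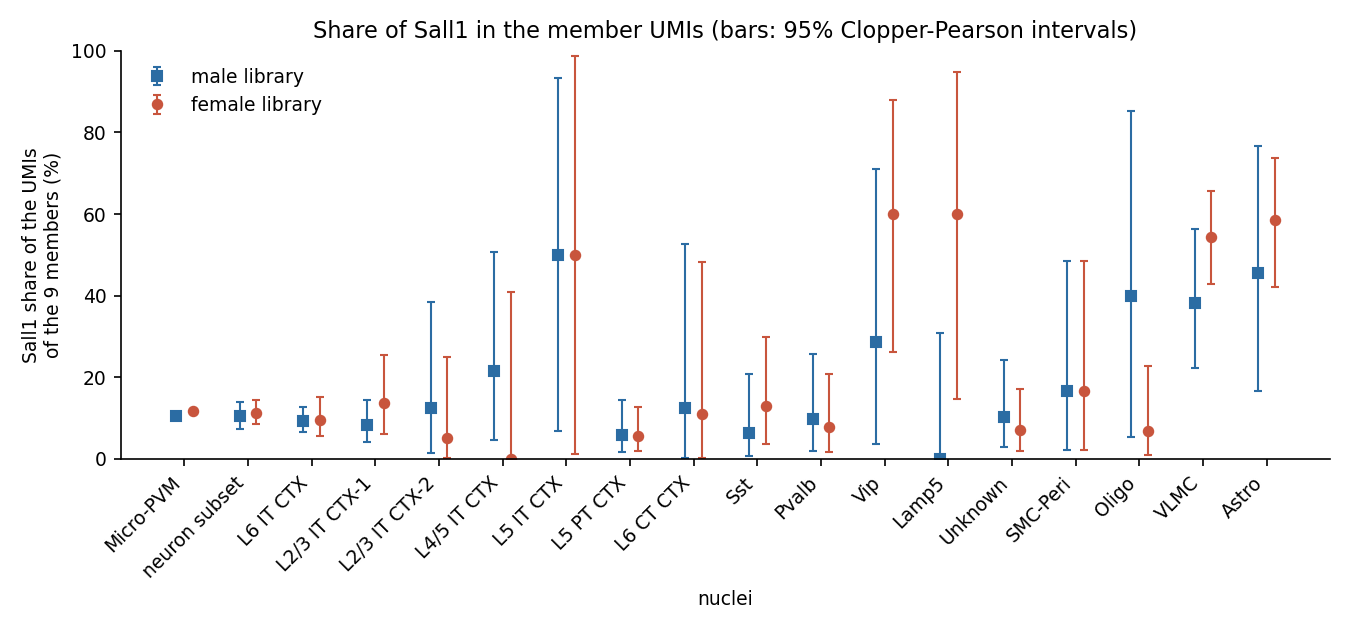
The share of Sall1 in the UMIs of the 9 members (y axis, percent) is shown for Micro-PVM nuclei, the neurons together and 16 other labels (x axis), with squares for the male and circles for the female library and bars for 95% Clopper-Pearson intervals. It is 10.6% and 11.7% in Micro-PVM nuclei, and 38.2% to 58.5% in VLMC and Astro, where the intervals of all 4 values lie above those of Micro-PVM, as do those of Vip and Lamp5 in the female library, which rest on 6 and 3 Sall1 UMIs.

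Whether RNA of the members was found more in one kind of neuron was asked for the layers that the study compares. Only Cx3cr1, Csf1r and Sall1 passed the filter on low counts in the sums of neurons. The share of Sall1 in the member UMIs differed between labels, and Cx3cr1 overlaps Gorasp1, Csrnp1 and Xirp1 on its own strand. How much of the RNA of these 3 genes in neurons is microglial was not tested. In L5 PT against L2/3 IT nuclei 0 of these 3 passed the test, where 12.4% of 8255 genes did (edgeR quasi-likelihood test without the library as a block). An unadjusted p under 0.05 was found for 1 of the 3 and for 1865 of the 8255 genes. DESeq2 called 0 of the 3, with 0 under 0.05. Cx3cr1 was at 14.7 and 8.1 CPM in L5 PT and 28.2 and 15.4 CPM in L2/3 IT nuclei, lower in both libraries (log2 fold change -0.94 ± 0.39, adjusted p = 0.138). Both groups come from the same pools, and with the library as a block Cx3cr1 passed (adjusted p = 0.0423), as did 1772 of 8255 genes. Sall1 was at 5.51 and 2.02 against 8.13 and 7.72 CPM (-1.18 ± 0.65, adjusted p = 0.309), and Csf1r at 18.4 and 9.54 against 20.6 and 10.2 CPM (-0.15 ± 0.44, adjusted p = 0.924). In inhibitory against excitatory subclasses, 0 of the 3 passed and 0 had an unadjusted p under 0.05, with edgeR and with DESeq2, where 21.8% of 8255 genes passed. All neurons together held 356 and 470 member UMIs, which limits what both comparisons could detect.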

How the data were processed

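The authors counted reads of 2 libraries with Cell Ranger against a pre-mRNA reference of GRCm38 (mm10). The matrix headers give version 7.0.1 (male) and 7.0.0 (female), and the submitters' processing notes 3.1.0. The deposited matrices hold raw UMI counts, and the deposited table of nuclei holds clusters, labels and the percent of mitochondrial UMIs, made by the authors with Seurat. Its 8171 nuclei (4003 male, 4168 female, of 4044 and 4214 called barcodes with 11007366 and 23202343 UMIs) were used as given, without a further doublet filter. A deposited matrix of depth-corrected values was not used.

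UMIs were summed per library and group of nuclei and divided by all UMIs of the sum. Intervals are 95% Poisson or Clopper-Pearson (scipy 1.17.1). Sums were tested with edgeR 4.0.16 (glmQLFit, glmQLFTest) in R 4.3.3, with TMM scaling, a filter on low counts and a threshold of 0.05 on the Benjamini-Hochberg adjusted p over all genes tested. DESeq2 1.42.0 was an alternative, and its missing adjusted p-values stayed missing. The tests were checked on simulated data. The replicates of the neuron tests are sums per library and subclass, so their p-values measure only the spread between these sums. Sums of 1 library share a pool of animals, which is the pairing used as the library block.

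All members were named. List genes were named as up to 4 examples highest in mean level in Micro-PVM nuclei, and like genes as the 8 highest and 8 lowest in r. Some genes that this rule would name are not reported here. 1 listed gene was not in the tables used. The members and lists were chosen with earlier results of these data known.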

Additional observations from a re-analysis of the deposited data

Results flagged for a closer look

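In 5 results the libraries gave opposite directions, each from 1 value per library, and whether the libraries differed was not tested. In Micro-PVM nuclei with against without an Atf3 UMI, the log2 fold change of Cx3cr1 was 0.19 (male) and -0.56 (female). That of P2ry13 was 0.98 and -0.11, with 2 and 11 UMIs in the nuclei with an Atf3 UMI. That of Tmem119 was 0.071 and -1.23, with 7 and 17 UMIs. The fold changes are differences in log2 CPM, taken after 1 UMI was added to every count, without TMM scaling. Without the added UMI, Tmem119 was lower with an Atf3 UMI in the male library too (56.5 against 61.1 CPM). P2ry13 was at 16.2 against 11.9 CPM there. In inhibitory against excitatory neurons, the log2 fold change of Cx3cr1 was 0.14 and -0.62, and that of Sall1 was -0.64 and 1.11.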

How the results depend on the processing

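The level of the members in Micro-PVM nuclei (mean of the libraries 2042 CPM) was 2554 CPM with mitochondrial genes, Malat1 and Gm42418 left out of the total, and 1716 to 2368 CPM with 1 library left out. The level in other labels (3.36% of Micro-PVM) was 10.0% as a mean of single nuclei, 2.14% in nuclei whose own and cluster label were both not Micro-PVM, 2.18% without L6 IT CTX, and 2.61% to 4.11% with 1 library left out. The fold between the highest and lowest cluster (6.73) was 7.44 under the limits on genes and mitochondrial UMIs in the study's methods, 4.6 without nuclei carrying markers of another class, 2.57 without cluster 13, and 6.32 to 7.25 with 1 library left out. The share of nuclei with a UMI of any member (79.8%) was 92.7% without thinning, 61.4% at 500 and 89.1% at 2000 UMIs. The ratio of male to female library (1.38) was 1.08 in nuclei of 2000 to under 4000 UMIs, where Csf1r (0.833) and Tmem119 (0.934) reversed, and 1.33 without cluster 13.

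With the library as a replicate block, L5 PT against L2/3 IT nuclei gave 1 member and 1772 genes called (0 and 1020 without), and the block changed no member's call between inhibitory and excitatory nuclei. For nuclei with against without an Atf3 UMI (5 members and 582 genes), no replicate block gave 0 members and 0 genes (7 members at an unadjusted p under 0.05), DESeq2 1 and 33, nuclei without markers of another class 0 and 0 (3 members at an unadjusted p under 0.05, with 301 of 1700 and 118 of 2362 nuclei left), thinning 2 and 43, leaving out cluster 13 2 and 153, and cluster 1 alone 0 and 3. With 1 library left out, which left no test, the log2 fold change with against without an Atf3 UMI was taken over all Micro-PVM nuclei. It ran from -0.11 to 0.98 for P2ry13, -0.56 to 0.19 for Cx3cr1 and -1.23 to 0.071 for Tmem119. Between inhibitory and excitatory nuclei it ran from -0.62 to 0.14 for Cx3cr1 and -0.64 to 1.11 for Sall1. Tmem119 also turned (1.49) without nuclei carrying markers of another class. The cause of these changes was not tested beyond the smaller number of nuclei in the restricted sets. The restrictions to cluster 1, to 2000 to under 4000 UMIs, and without cluster 13 or L6 IT CTX were chosen after seeing the data. Of the values of single members, 326 kept their direction and call or stayed within their spread, 79 moved, 25 lost a call or weakened, 1 gained a call and 8 reversed. Depth limits P2ry13 most.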
